A study of Mus musculus with 30 samples.

Results

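Cells taken from intestine by enzymes and sorted by fluorescence can switch on genes during handling, and 37 genes of that kind were followed here through every deposited comparison. They comprised 26 immediate early genes and 11 heat-shock genes, out of 20093 genes listed in any of the tables. The members were chosen by name, as genes known from dissociation responses, with earlier results of these data known. The study profiled mesenchymal cells of C57BL/6 mice carrying ColVI-cre and the Rosa mTmG reporter. In such mice the Cre is driven by a collagen VI promoter, and cells in which it has been active, with their descendants, turn from membrane Tomato to GFP, so GFP marks a history of Cre activity and not collagen VI level at the time of sorting. In the colon the groups were GFP-positive cells, GFP-negative (Tomato) cells and unsorted intestinal cells, first from mice with DSS-induced colitis and then from normal mice. In the small intestine of normal mice they were GFP-high, GFP-low, GFP-negative and unsorted cells. Every library was labelled as a fresh isolation, and DSS, dextran sulfate sodium, is a polymer that injures the colonic epithelium. Each group held 3 libraries, apart from unsorted small intestine, where replicates 2 and 3 (n = 2) were used and replicate 1 was not analysed here. The labels did not give age, number of animals or whether replicates came from separate animals, so p-values measure the spread between these samples.

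Immediate early genes are transcribed within minutes of a stimulus without new protein synthesis, through factors that are already present, and most encode transcription factors or short-lived brakes on signalling and mRNA. Heat-shock genes are induced through HSF1 when proteins misfold and encode chaperones that hold, refold or route proteins. Both programmes are known to be raised by enzymatic tissue digestion and also by injury and inflammation, so a list of their members does not tell handling from a response in the animal.

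Values were the authors' normalised 3′ RNA-seq counts, called normalised counts below, from a protocol that reads the 3′ end of each polyadenylated transcript. They stood on 3 separate scales, for DSS colon, normal colon and small intestine, and on a further scale shared by the sorted DSS and normal colon libraries, so levels are compared only within a scale. The 3 genes given as markers of the set, Junb, Zfp36 and Egr1, were detected in all 29 libraries. Estimated depth, as reads counted to the genes listed, was 1228000 to 4416000 per library in the 27 libraries where it could be recovered. It could not be recovered for GFP-positive replicates 1 and 3 of normal colon. Sorted and unsorted libraries differed in their cells as well as in the sort. Epithelial markers (15 genes) summed to at most 0.0459% of normalised counts in any sorted library, against 0.0685% to 0.552% in the unsorted libraries of all 3 scales. Leukocyte markers (14 genes) reached at most 0.115% in sorted libraries, against 0.57% to 1.72% in unsorted ones. Fibroblast markers were at 0.864% to 2.73% in sorted libraries, against 0.24% to 1.67% in unsorted ones, and smooth muscle, glial, endothelial and erythroid markers were also detected in unsorted libraries. Between a sorted and an unsorted library, the effect of sorting and the difference in cell types therefore cannot be told apart, and in bulk RNA fewer cells of a type cannot be told from less RNA per cell.

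Promoter sequences show which members carry the binding letters of the factors known to drive the 2 programmes. Windows of 250 bases upstream of the annotated start were read from RefSeq (GRCm38.p6, the same sequence as the mm10 build of the files) for 30 of the 37 members. Only the first listed window of each member was read, out of 39 listed for them, while shares of promoters count every listed window. Printed here are 4 windows, 5′ to 3′ on the strand of the gene, with motif matches in capitals. Zfp36 (chr7:28379229-28379478, minus strand) holds an EGR motif and a CArG box, the site of serum response factor. Dusp1 (chr17:26508473-26508722, minus strand) holds a full cAMP response element. Hspa1a (chr17:34972157-34972406, minus strand) holds a 2-unit heat-shock element, and Hspe1 (chr1:55087898-55088147, plus strand) holds overlapping 3-unit elements. The RefSeq starts differ for some genes from the deposited gene spans, which are the spans printed with gene names below. The Zfp36 window lies wholly inside its deposited span (chr7:28376784-28380253), and the Dusp1 and Hspe1 windows overlap theirs.
Zfp36: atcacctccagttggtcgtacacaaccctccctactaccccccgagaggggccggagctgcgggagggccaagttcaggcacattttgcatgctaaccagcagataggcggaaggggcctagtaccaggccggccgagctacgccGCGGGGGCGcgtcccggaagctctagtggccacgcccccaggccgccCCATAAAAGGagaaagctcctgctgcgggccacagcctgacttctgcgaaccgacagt
Dusp1: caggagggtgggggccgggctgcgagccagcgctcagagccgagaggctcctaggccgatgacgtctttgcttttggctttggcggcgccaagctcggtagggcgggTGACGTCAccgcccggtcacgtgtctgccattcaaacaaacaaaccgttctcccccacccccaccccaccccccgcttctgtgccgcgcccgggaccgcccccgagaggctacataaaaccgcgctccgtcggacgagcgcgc
Hspa1a: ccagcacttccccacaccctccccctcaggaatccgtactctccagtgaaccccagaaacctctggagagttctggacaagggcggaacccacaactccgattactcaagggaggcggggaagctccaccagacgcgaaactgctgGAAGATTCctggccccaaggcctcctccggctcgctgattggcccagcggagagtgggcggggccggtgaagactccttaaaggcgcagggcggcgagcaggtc
Hspe1: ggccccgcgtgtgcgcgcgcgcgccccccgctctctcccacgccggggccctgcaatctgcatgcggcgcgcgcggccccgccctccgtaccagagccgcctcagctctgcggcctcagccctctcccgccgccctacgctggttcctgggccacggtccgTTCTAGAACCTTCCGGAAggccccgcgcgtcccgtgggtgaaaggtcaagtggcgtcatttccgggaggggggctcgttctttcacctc
Both strands were searched. The EGR motif GCGNGGGCG stood in 9 of 22 immediate early windows (Btg2, Nr4a2, Klf4, Fosl2, Fosb, Zfp36, Klf2, Gadd45b and Nr4a1) and in 1 of 8 heat-shock windows (Dnaja1), against 4.7% of 32851 promoters. The element GAANNTTC, which was chosen after the values were seen and lies inside the 3-unit heat-shock element, stood in 5 of 8 heat-shock windows (Hspe1, Dnaja1, Hspb1, Hspa1a and Hspa1b) and in 2 of 22 immediate early windows (Jun and Fosl2), against 6.69% of promoters. The 3-unit form was in the window of Hspe1 and in no other of the 30 windows read, against 0.466% of promoters. That window also lies inside the span of Hspd1, its neighbour on the minus strand (chr1:55077835-55088243), so the element is not shown to belong to Hspe1 alone. TGACGTCA, the cAMP response element, stood in Btg2 and Dusp1, against 1.55% of promoters, and the AP-1 motif TGAGTCA in no window read, against 4.46%. The CArG box stood in Zfp36 alone among the 22 immediate early windows, against 1.47% of promoters. The windows of Hspa1a and Hspa1b, a neighbouring gene pair encoding near-identical inducible HSP70 proteins, were the same at 247 of 250 bases. Short reads from such a pair can be divided between them by the counting, so their separate values are uncertain.

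Immediate early transcripts took the largest share of a library in sorted colon and the smallest in the GFP-high and GFP-low cells of the small intestine. In DSS colon they made up 5.47 ± 1.04% of normalised counts in GFP-positive cells and 6.35 ± 0.702% in GFP-negative cells, against 3.24 ± 0.221% in unsorted cells (SD, n = 3 each). In normal colon they made up 4.21 ± 1.32% in GFP-positive and 4.77 ± 1.09% in GFP-negative cells, against 2.7 ± 0.45% in unsorted cells (SD, n = 3 each). In the small intestine they were 0.88 ± 0.227% in GFP-high, 0.952 ± 0.0931% in GFP-low and 2.74 ± 0.335% in GFP-negative cells (SD, n = 3 each), against 1.92% and 2.1% in the unsorted libraries. Sorting thus went with a higher share in each colon sort and with a lower share in the 2 GFP-bearing sorts of the small intestine, and the unsorted small-intestine libraries lay between.
Heat-shock transcripts followed another order. They took 2.33 ± 0.364% in GFP-positive and 1.93 ± 0.169% in GFP-negative DSS cells, against 1.35 ± 0.0436% in unsorted DSS cells (SD, n = 3 each). Normal colon held 1.22 ± 0.189% in GFP-positive and 1.31 ± 0.39% in GFP-negative cells, against 0.925 ± 0.0662% in unsorted cells (SD, n = 3 each). In the small intestine GFP-high cells held 0.417 ± 0.118%, GFP-low cells 0.582 ± 0.113% and GFP-negative cells 0.692 ± 0.114% (SD, n = 3 each), against 1.67% and 1.16% in the unsorted libraries. Every sorted small-intestine library was below both unsorted ones for heat-shock share, while the GFP-negative libraries were above both for immediate early share. These sums are a description, with no test, and a few abundant members such as Junb, Egr1 and Jun weigh most in them.

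**Figure D1:**
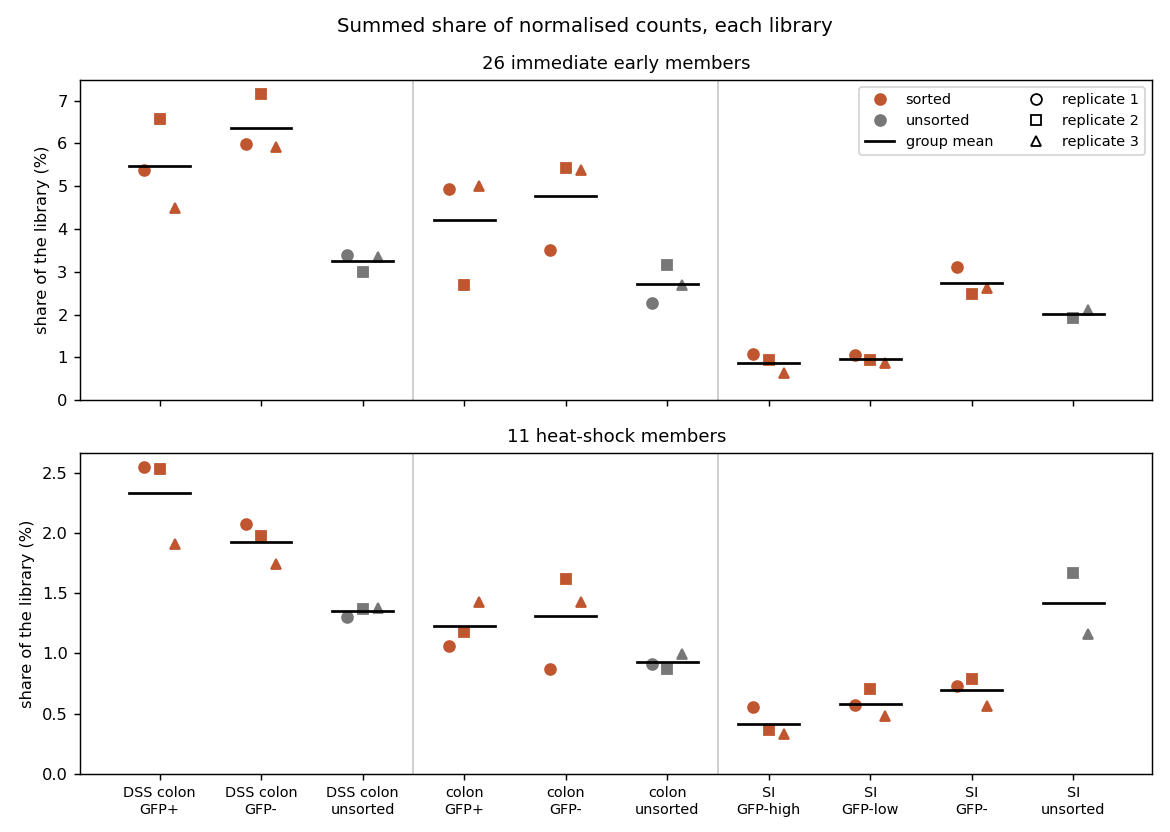
Share of all normalised counts (percent, y axis) taken by the 26 immediate early members and by the 11 heat-shock members in each library, by group; each point is 1 library and each bar a group mean. Immediate early shares run from 4.49% to 7.16% in the sorted DSS libraries, above the 2.99% to 3.4% of the unsorted DSS libraries, and from 0.629% to 1.07% in GFP-high and GFP-low small-intestine libraries, below the 1.92% and 2.1% of unsorted ones.

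The members also varied between libraries of the same group, often in the same libraries. In normal colon the GFP-positive replicate 2 was lowest of its group in 24 of 26 immediate early genes, with a share of 2.69% against 4.94% and 5.01% in the other replicates. The GFP-negative replicate 1 of normal colon was lowest in 22 immediate early and 10 of 11 heat-shock genes. In DSS colon the GFP-positive replicate 2 was highest in 20 immediate early genes, and replicate 3 was lowest in 22 immediate early genes and all 11 heat-shock genes. The GFP-negative replicate 2 of DSS colon was likewise highest in 18 immediate early and 8 heat-shock genes. Its replicates 1 and 3 were each lowest in 13 immediate early genes, and replicate 3 was lowest in 8 heat-shock genes. In unsorted DSS cells it was replicate 1 that was lowest in 15 immediate early genes. Among small-intestine libraries, the GFP-negative replicate 1 was highest in 20 immediate early genes and the unsorted replicate 2 highest in all 11 heat-shock genes. The median SD of log2 values within normal-colon GFP-positive cells was 0.69 for immediate early members, against 0.28 for all genes averaging 100 or more. In the GFP-negative cells of normal colon it was 0.77 for heat-shock members, against 0.34 for all genes. Unsorted libraries gave 0.51 and 0.47 in normal colon for immediate early members and all genes, so the excess spread was not seen in every group. The share of all genes highest or lowest in each of these libraries is not given. In normal colon GFP-positive replicate 2 also had the smallest total of normalised counts in its group, 3673971 against 4222908 and 4084443. In DSS colon GFP-positive replicate 2 had the largest total of its group and replicate 3 the smallest. Unsorted DSS replicate 1 went the other way, with the largest total of its group. What set these libraries apart was not tested.

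Sorted cells of DSS colon held more of many immediate early transcripts and of some HSP70 and J-protein transcripts than unsorted DSS cells. Of 25 tested immediate early members, 11 rose and 1 fell in GFP-positive cells (limma, Benjamini-Hochberg adjusted p under 0.05 over all genes tested), a share of 48%, while 37.1% of all genes tested passed (15.8% upward and 21.3% downward). In GFP-negative cells 14 rose and 1 fell, a share of 60%, against 33% of all genes (13.7% upward and 19.3% downward). The median log2 fold change of the members was 0.59 in GFP-positive and 1.02 in GFP-negative cells, where the medians over all genes were -0.04 and -0.05. Among heat-shock members 6 of 11 rose in GFP-positive cells and 5 of 11 in GFP-negative cells, with medians of 0.70 and 0.69, and none fell. These 2 comparisons share their unsorted libraries. Leaving out GFP-positive replicate 2 left 7 immediate early calls, and leaving out GFP-positive replicate 1 or 2 left 3 heat-shock calls in GFP-positive cells. In GFP-negative cells, leaving out GFP-negative replicate 2 left 9 immediate early and 2 heat-shock calls, and leaving out unsorted replicate 1 or GFP-negative replicate 1 or 3 left 3 heat-shock calls.

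The largest log2 fold changes of immediate early members in DSS colon belonged to Egr1 and Cyr61. Egr1, a zinc-finger transcription factor induced by growth factors and stress (chr18:34859823-34864984), had 36358, 40818 and 12389 normalised counts in GFP-positive and 37278, 44732 and 38235 in GFP-negative DSS cells, against 6884, 9201 and 10875 in unsorted DSS cells. Every sorted library exceeded every unsorted one, with GFP-positive replicate 3 the nearest to them. The log2 fold change was 1.58 ± 0.40 (SE, adjusted p = 0.0084) in GFP-positive and 2.18 ± 0.27 (adjusted p = 7.4e-05) in GFP-negative cells. Egr2, its close relative, rose by 1.05 ± 0.25 (adjusted p = 0.0058) in GFP-positive and 0.97 ± 0.25 (adjusted p = 0.01) in GFP-negative cells. Cyr61, which encodes a secreted matrix protein that binds integrins (chr3:145646976-145649981), had 15233, 17030 and 12921 normalised counts in GFP-positive and 9662, 16894 and 11620 in GFP-negative cells, against 2179, 2933 and 4683 in unsorted cells. The groups did not overlap, and the log2 fold change was 2.27 ± 0.28 (adjusted p = 4.7e-05) in GFP-positive and 1.99 ± 0.33 (adjusted p = 0.00052) in GFP-negative cells. Cyr61 and Egr1 passed in every fit that left out 1 library, and Egr2 was not called in GFP-negative cells without GFP-negative replicate 2. Fibroblast markers (10 genes), whose cells express Cyr61, summed to 0.864% to 1.03% in GFP-positive and 1.75% to 2.63% in GFP-negative cells, against 0.545% to 0.983% in unsorted cells, and their part in the difference was not tested.

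The AP-1 genes divided. Jun, which encodes a DNA-binding partner of FOS proteins, had 30808, 41823 and 31874 normalised counts in GFP-positive and 34408, 47570 and 37524 in GFP-negative DSS cells, against 13938, 14176 and 17060 in unsorted cells. All 6 sorted libraries were above the unsorted ones, by 1.20 ± 0.23 on the log2 scale (SE, adjusted p = 0.0014) in GFP-positive and 1.40 ± 0.27 (adjusted p = 0.0015) in GFP-negative cells. Junb, a JUN relative that was given as a marker of the set (chr8:84974484-84978718), had 20030, 38833 and 25847 in GFP-positive and 43164, 52848 and 32215 in GFP-negative cells, against 37168, 12660 and 18098 in unsorted cells. Its groups overlapped because unsorted replicate 1 was high, and the log2 fold change passed neither in GFP-positive (0.41 ± 0.38, adjusted p = 0.42) nor in GFP-negative cells (1.04 ± 0.38, adjusted p = 0.055). Fos, the founding FOS partner, had 2422, 2351 and 1845 in GFP-positive and 4068, 3691 and 3310 in GFP-negative cells, against 2130, 1771 and 1700 in unsorted cells. Only the GFP-negative libraries stood clear of the unsorted ones, with a log2 fold change of 0.98 ± 0.23 (adjusted p = 0.0064), against 0.24 ± 0.22 (adjusted p = 0.43) for GFP-positive cells. Fosl1 rose in GFP-negative cells (1.31 ± 0.35, adjusted p = 0.012) and Fosb in GFP-positive cells (1.12 ± 0.36, adjusted p = 0.029), while Fosl2 and Jund passed in neither. Jun, and Fos in GFP-negative cells, passed in every fit that left out 1 library. Fosl1 was not called without GFP-negative replicate 2, nor Fosb without unsorted replicate 1 or 3 or GFP-positive replicate 1 or 2.

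Among genes that end the early response, Zfp36, which encodes the mRNA-destabilising protein tristetraprolin (chr7:28376784-28380253), had 4692, 8459 and 3706 normalised counts in GFP-positive and 7605, 19868 and 11907 in GFP-negative DSS cells, against 2904, 2876 and 3719 in unsorted cells. GFP-negative cells were higher throughout, by 1.95 ± 0.33 (adjusted p = 0.00072), and GFP-positive replicate 3 lay inside the unsorted range, with a difference of 0.75 ± 0.29 (adjusted p = 0.064). Dusp1, a phosphatase that switches off MAP kinases, rose in GFP-positive (0.74 ± 0.24, adjusted p = 0.026) and GFP-negative cells (1.09 ± 0.26, adjusted p = 0.0063). The antiproliferative gene Btg2 rose in GFP-positive (0.86 ± 0.23, adjusted p = 0.01) and GFP-negative cells (1.05 ± 0.23, adjusted p = 0.0041), and neither of these 2 genes was called in GFP-positive cells without GFP-positive replicate 1 or 2. Gadd45g, a growth-arrest and stress-kinase adaptor, had 2699, 2659 and 2149 in GFP-positive and 2489, 2678 and 2014 in GFP-negative cells, against 816, 908 and 816 in unsorted cells. Its sorted libraries lay far above the unsorted ones, by 1.56 ± 0.21 (adjusted p = 8.4e-05) in GFP-positive and 1.49 ± 0.23 (adjusted p = 0.00034) in GFP-negative cells. Gadd45b, Ier2 and Ier5 also rose in both sorts, and Klf4, a zinc-finger transcription factor, rose in GFP-negative cells, and of these calls Ier5 in GFP-positive cells held in every fit that left out 1 library. Mcl1, which encodes an anti-apoptotic BCL2 relative (chr3:95658788-95663176), went the other way. It had 1124, 1762 and 713 in GFP-positive and 1292, 1511 and 1066 in GFP-negative cells, against 2954, 2607 and 2056 in unsorted cells. All sorted libraries were below all unsorted ones, with log2 fold changes of -1.16 ± 0.30 (adjusted p = 0.0094) in GFP-positive and -0.98 ± 0.25 (adjusted p = 0.0097) in GFP-negative cells. The call was lost without GFP-positive replicate 3 in GFP-positive cells and without GFP-negative replicate 3 in GFP-negative cells.

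The heat-shock members that rose in DSS colon were mainly cytosolic HSP70s with their J-protein and exchange-factor partners. Hspa1a, an inducible HSP70 (chr17:34969190-34972156), had 21110, 22858 and 16815 normalised counts in GFP-positive and 13904, 16414 and 14154 in GFP-negative DSS cells, against 8012, 8062 and 7569 in unsorted cells. The sorted libraries did not overlap the unsorted ones, and the log2 fold change was 1.35 ± 0.22 (SE, adjusted p = 0.00044) in GFP-positive and 0.91 ± 0.24 (adjusted p = 0.012) in GFP-negative cells. Hsph1, an HSP110 exchange factor for HSP70 (chr5:149614287-149636376), had 1560, 2091 and 990 in GFP-positive and 1207, 1231 and 1138 in GFP-negative cells, against 534, 953 and 714 in unsorted cells. The lowest sorted library and the highest unsorted one were close, and the log2 fold change was 1.05 ± 0.30 (adjusted p = 0.015) in GFP-positive and 0.74 ± 0.25 (adjusted p = 0.041) in GFP-negative cells. Of the J-proteins that deliver clients to HSP70, Dnaja1 rose by 1.26 ± 0.27 (adjusted p = 0.0026) in GFP-positive and 0.72 ± 0.24 (adjusted p = 0.034) in GFP-negative cells. Dnajb1 rose by 0.70 ± 0.24 (adjusted p = 0.039) in GFP-positive and 1.40 ± 0.22 (adjusted p = 0.00038) in GFP-negative cells. Hsp90aa1, the inducible HSP90, rose in GFP-negative cells, and the small heat-shock protein gene Hspb1 and Hspa1b rose in GFP-positive cells. The constitutive Hspa8 and Hsp90ab1 and the mitochondrial chaperonin genes Hspd1 and Hspe1 passed in neither sort. Hspa1a, Hspa1b and Dnaja1 in GFP-positive and Hsp90aa1 and Dnajb1 in GFP-negative cells passed in every fit that left out 1 library. In GFP-positive cells Hsph1 was not called without GFP-positive replicate 1 or 2, Hspb1 without those or unsorted replicate 3, and Dnajb1 without those or unsorted replicate 2 or 3. In GFP-negative cells Hspa1a was not called without GFP-negative replicate 2, and Hsph1 and Dnaja1 were not called without unsorted replicate 1 or 3 or any one GFP-negative replicate.

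**Figure D2:**
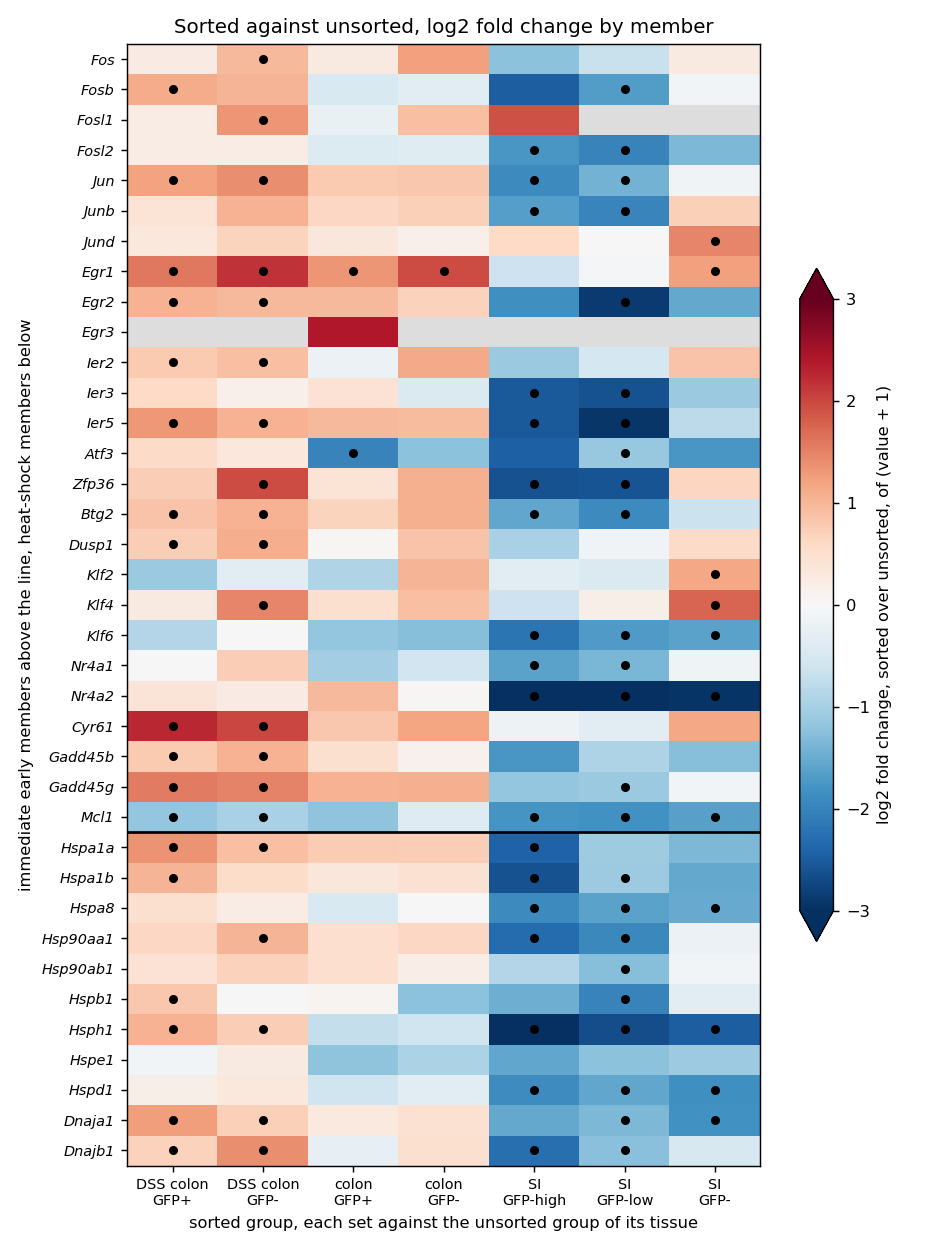
Log2 fold change of each member, sorted over unsorted (colour and axis as marked), in the 7 sorted against unsorted comparisons, with members past the limma threshold marked. Egr1 is past the threshold upward in 5 of the 7 comparisons and Mcl1 downward in 5 of the 7. Comparisons within DSS colon, normal colon or small intestine share their unsorted libraries.

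In normal colon few members passed, and their number lay below the background. Of 26 immediate early members in GFP-positive cells 1 rose (Egr1) and 1 fell (Atf3), a share of 7.69% where 21.8% of all genes passed (7.72% upward and 14.1% downward). Of 25 in GFP-negative cells 1 rose (Egr1), a share of 4% where 18.8% passed (5.81% upward and 13% downward). By limma 0 of 11 heat-shock members passed in each comparison, with 1 in each at an unadjusted p under 0.05. Both were lower in the sorted cells, Hspe1 in GFP-positive (-1.21) and Hspb1 in GFP-negative cells (-1.22). At that unadjusted level 7 immediate early members stood in GFP-positive and 10 in GFP-negative cells. Of these Atf3, Klf6 and Mcl1 were lower in GFP-positive cells and Klf6 in GFP-negative cells, and the others were higher. The share of all genes at that unadjusted level is not given. It can be no lower than the 21.8% and 18.8% past the adjusted threshold, so these counts are not read as a result about the members. Over all immediate early members tested the median log2 fold change was 0.43 in GFP-positive and 0.81 in GFP-negative cells, against -0.06 and -0.07 for all genes. Egr1 had 34257, 23844 and 30192 normalised counts in GFP-positive and 32910, 50431 and 55425 in GFP-negative cells, against 8830, 16138 and 10781 in unsorted cells. The sorted libraries lay above all unsorted ones, by 1.33 ± 0.41 (SE, adjusted p = 0.038) in GFP-positive and 1.97 ± 0.44 (adjusted p = 0.011) in GFP-negative cells. In GFP-positive cells the call was lost without any one GFP-positive replicate or without unsorted replicate 1 or 3. Atf3, a stress-responsive ATF/CREB factor, had 546, 415 and 939 in GFP-positive and 192, 2202 and 2625 in GFP-negative cells, against 1477, 3636 and 2629 in unsorted cells. It was lower in every GFP-positive library, with a log2 fold change of -2.02 ± 0.43 (adjusted p = 0.0073), and the wide GFP-negative values gave -1.22 ± 0.92 (adjusted p = 0.4).
Junb had 42202, 13331 and 41501 in GFP-positive and 27035, 35294 and 29733 in GFP-negative cells, against 17233, 18226 and 20054 in unsorted cells. GFP-positive replicate 2 fell below all unsorted libraries while the other replicates were above them, and neither difference passed. Zfp36 had 5972, 2259 and 3799 in GFP-positive and 5715, 7271 and 4771 in GFP-negative cells, against 1969, 3616 and 3073 in unsorted cells, with log2 differences of 0.41 ± 0.43 (adjusted p = 0.54) for GFP-positive and 1.06 ± 0.39 (adjusted p = 0.086) for GFP-negative cells. Mcl1 had 1205, 829 and 826 in GFP-positive and 994, 1763 and 2568 in GFP-negative cells, against 1764, 3891 and 1502 in unsorted cells. It was lower in each GFP-positive library without passing (-1.21 ± 0.41, adjusted p = 0.057). The calls were few: with library totals set equal 2 immediate early members rose and 1 fell in GFP-positive cells. There 1 of the 2 calls was left without GFP-positive replicate 1 or 3, and 1 heat-shock call appeared without unsorted replicate 1. In GFP-negative cells 4 immediate early calls were made without unsorted replicate 1, 2 without GFP-negative replicate 1 and 0 without GFP-negative replicate 2.

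**Figure D3:**
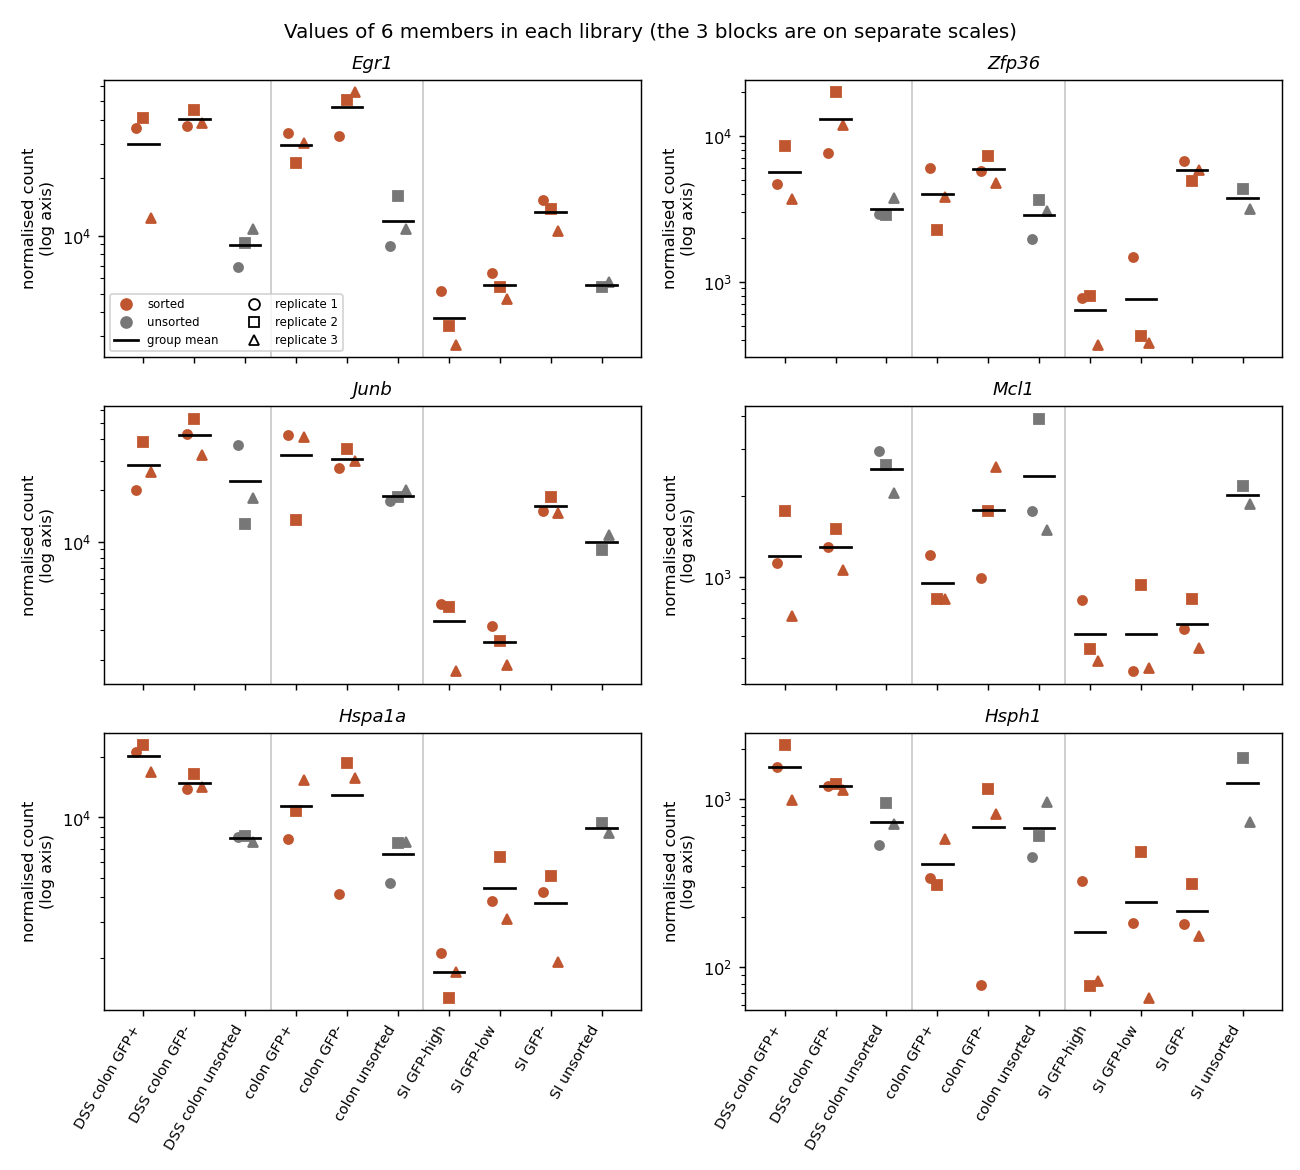
Normalised counts (log axis) of Egr1, Zfp36, Junb, Mcl1, Hspa1a and Hsph1 in each library by group, on the 3 separate scales of DSS colon, normal colon and small intestine; each point is 1 library. Egr1 is at 12389 or more in every sorted DSS colon library and at 10875 or less in the unsorted ones. In normal colon it is at 23844 or more in every sorted library and at 16138 or less in the unsorted ones. Hspa1a is at 6360 or less in every sorted small-intestine library and at 9340 and 8340 in the unsorted ones.

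In the small intestine both families were lower in GFP-high and GFP-low cells than in unsorted cells. In GFP-high cells 11 of 25 immediate early members fell and none rose, a share of 44% where 17.2% of all genes passed (6.13% upward and 11.1% downward). In GFP-low cells 15 of 24 fell, a share of 62.5% where 22.8% passed (9.13% upward and 13.7% downward). The heat-shock family fell in 7 of 11 members in GFP-high and 9 of 11 in GFP-low cells, and the 9 became 5 when values were centred at the median of all genes and 4 when all small-intestine groups were fitted together. The median log2 fold changes were -1.65 and -1.39 for immediate early and -1.90 and -1.35 for heat-shock members, beside -0.14 for all genes in each comparison, so the members lay far below that shift. In GFP-negative cells 4 immediate early members rose and 3 fell of 24 tested, a share of 29.2% where 11.5% of all genes passed (4.58% upward and 6.96% downward), with a median of -0.09 against -0.26 for all genes; centred at that shift, the median was 0.17, and 5 rose and 2 fell. There 4 of 11 heat-shock members fell, with a median of -1.35. These comparisons rest on 2 unsorted libraries, and the 3 sorts share them.
Leaving out unsorted replicate 2 or 3 left 0 immediate early and 0 heat-shock calls in GFP-high cells, and the same in GFP-negative cells, where the lone unsorted library is assumed to vary like the sorted ones. In GFP-low cells unsorted replicate 2 left out gave 2 immediate early and 0 heat-shock calls, and unsorted replicate 3 left out gave 4 and 3. Without GFP-high replicate 3 heat-shock calls numbered 3, and without GFP-low replicate 3 they numbered 3. In GFP-negative cells immediate early calls numbered 3 without GFP-negative replicate 2 and 4 without GFP-negative replicate 3, and heat-shock calls 1 without GFP-negative replicate 1 or 3.

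Zfp36 had 769, 793 and 370 normalised counts in GFP-high, 1466, 427 and 379 in GFP-low and 6696, 4918 and 5823 in GFP-negative small-intestine cells, against 4345 and 3158 in unsorted cells. The GFP-bearing sorts were below and the GFP-negative sort above every unsorted library. The log2 fold change was -2.60 ± 0.41 (SE, adjusted p = 0.004) in GFP-high, -2.58 ± 0.54 (adjusted p = 0.0088) in GFP-low and 0.64 ± 0.28 (adjusted p = 0.19) in GFP-negative cells. Junb had 4284, 4137 and 1720 in GFP-high, 3157, 2593 and 1869 in GFP-low and 15196, 18296 and 14816 in GFP-negative cells, against 8868 and 10874 in unsorted cells. It fell in GFP-high (-1.65 ± 0.46, adjusted p = 0.038) and GFP-low cells (-1.98 ± 0.32, adjusted p = 0.0025), and its GFP-negative difference of 0.71 ± 0.26 did not pass (adjusted p = 0.12). Egr1 departed from them, with 5166, 3388 and 2720 in GFP-high, 6410, 5448 and 4690 in GFP-low and 15373, 13766 and 10557 in GFP-negative cells, against 5395 and 5741 in unsorted cells. It rose in GFP-negative cells (1.23 ± 0.27, adjusted p = 0.027), and its differences in GFP-high (-0.62 ± 0.37, adjusted p = 0.3) and GFP-low cells (-0.02 ± 0.28, adjusted p = 0.96) did not pass. Nr4a2, an orphan nuclear receptor of the early response, had the steepest fall among the members tested in these 3 comparisons, with 39, 76 and 19 in GFP-high, 19, 25 and 24 in GFP-low and 85, 70 and 78 in GFP-negative cells, against 530 and 680 in unsorted cells. Its log2 fold change was -3.93 ± 0.54 (adjusted p = 0.0023) in GFP-high, -4.68 ± 0.35 (adjusted p = 0.00017) in GFP-low and -2.94 ± 0.32 (adjusted p = 0.0037) in GFP-negative cells, and the GFP-low call held in every fit that left out 1 library. The gene was singled out after its values were seen.
Mcl1 had 817, 538 and 484 in GFP-high, 445, 933 and 458 in GFP-low and 640, 824 and 543 in GFP-negative cells, against 2188 and 1873 in unsorted cells. No sorted library reached the unsorted ones, and the log2 fold change was -1.76 ± 0.35 (SE, adjusted p = 0.0094) in GFP-high, -1.81 ± 0.37 (adjusted p = 0.0075) in GFP-low and -1.62 ± 0.30 (adjusted p = 0.015) in GFP-negative cells. Mcl1 was thus lower in 5 of the 7 sorted against unsorted comparisons, and Egr1 higher in 5 of the 7. No other member passed in one direction in as many. Comparisons within DSS colon, normal colon or small intestine share their unsorted libraries, so these tallies are not of separate tests. No Mcl1 call held in every fit that left out 1 library. Members that rose in GFP-negative cells beside Egr1 were Jund (1.46 ± 0.30, adjusted p = 0.022), Klf2 (1.17 ± 0.28, adjusted p = 0.032) and Klf4 (1.74 ± 0.38, adjusted p = 0.025).

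Among small-intestine chaperone genes, Hspa1a had 2115, 1264 and 1692 normalised counts in GFP-high, 3833, 6360 and 3120 in GFP-low and 4255, 5115 and 1901 in GFP-negative cells, against 9340 and 8340 in unsorted cells. All sorted libraries were lower, and the difference passed in GFP-high cells (-2.42 ± 0.35, adjusted p = 0.0028) but not in GFP-low (-1.06 ± 0.35, adjusted p = 0.06) or GFP-negative cells (-1.35 ± 0.42, adjusted p = 0.078). Hsph1 had 327, 78 and 83 in GFP-high, 183, 485 and 66 in GFP-low and 181, 313 and 154 in GFP-negative cells, against 1766 and 736 in unsorted cells. It fell in each sort, with a log2 fold change of -3.14 ± 0.65 (adjusted p = 0.011) in GFP-high, -2.65 ± 0.78 (adjusted p = 0.046) in GFP-low and -2.46 ± 0.46 (adjusted p = 0.016) in GFP-negative cells, and the unsorted libraries were themselves far apart. Hspa8 and Hspd1 fell in all 3 sorts and Hspe1 passed in none. The summed epithelial markers of these sorted libraries were at 0.00505% to 0.0459%, against 0.135% and 0.223% in the unsorted ones, and the leukocyte markers at 0.0129% to 0.0818%, against 1.28% and 1.72%. Their part in the falls was not tested.

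When sorts were compared with each other, each member called was lower in the GFP-bearing sort. In DSS colon 5 of 25 immediate early members were lower in GFP-positive than in GFP-negative cells, a share of 20% where 17.1% of all genes passed (8.22% upward and 8.9% downward). They were Klf4 (-1.21 ± 0.29, SE, adjusted p = 0.012), Zfp36 (-1.20 ± 0.36, adjusted p = 0.043), Fosl1 (-1.08 ± 0.32, adjusted p = 0.04), Nr4a1 (-0.76 ± 0.22, adjusted p = 0.028) and Fos (-0.75 ± 0.19, adjusted p = 0.012). The J-protein gene Dnajb1 was the single heat-shock member lower there (-0.70 ± 0.21, adjusted p = 0.036), and with library totals set equal 2 heat-shock members were higher and 1 lower. In normal colon 2 of 26 were lower, a share of 7.69% where 5.98% passed (2.97% upward and 3.01% downward). They were Klf2, a flow- and quiescence-associated factor (-1.92 ± 0.36, adjusted p = 0.0092), and Ier2 (-1.32 ± 0.30, adjusted p = 0.026). By limma 0 of 11 heat-shock members passed there, with 1 at an unadjusted p under 0.05 (Hspb1, higher in GFP-positive cells). The share of all genes at that unadjusted level is not given, so this count is not read as a result about the members.
Among the small-intestine sorts the shares stood apart from the background. GFP-high cells were lower than GFP-negative cells in 7 of 25 immediate early members, 28% where 0.894% of all genes passed (0.395% upward and 0.5% downward). GFP-low cells were lower in 6 of 24, 25% where 0.675% passed (0.112% upward and 0.562% downward). Zfp36, Junb, Jun and Ier5 passed in both. Against GFP-negative cells Zfp36 differed by -3.24 ± 0.36 (adjusted p = 0.0016) in GFP-high and -3.22 ± 0.47 (adjusted p = 0.033) in GFP-low cells, and Junb by -2.36 ± 0.38 (adjusted p = 0.012) in GFP-high and -2.69 ± 0.27 (adjusted p = 0.0021) in GFP-low cells. Jun differed by -1.81 ± 0.32 (adjusted p = 0.021) in GFP-high and -1.32 ± 0.26 (adjusted p = 0.047) in GFP-low cells, and Ier5 by -1.74 ± 0.32 (adjusted p = 0.026) in GFP-high and -2.12 ± 0.29 (adjusted p = 0.01) in GFP-low cells. Klf4, Ier2 and Egr1 passed in GFP-high cells alone and Klf2 and Jund in GFP-low cells alone, and whether the 2 differences differed was not tested for them. Of the chaperones, Hsp90aa1 was lower in both, by limma's log2 differences of -2.15 ± 0.40 (adjusted p = 0.026) in GFP-high and -1.76 ± 0.31 (adjusted p = 0.034) in GFP-low cells. Between GFP-high and GFP-low cells limma called 0 members, where 0.384% of all genes passed at the adjusted threshold (0.368% upward and 0.0164% downward). At an unadjusted p under 0.05 there were 2 immediate early and 3 heat-shock members, all lower in GFP-high cells. The share of all genes at that unadjusted level is not given, so these counts are not read as a result about the members. The GFP-negative libraries are shared by the first 2 of these comparisons. All sorts in a tissue went through a sorter, and whether handling differed between gates was not tested.
Single libraries weighed on these counts. In DSS colon the 5 became 2 without GFP-negative replicate 2, 3 without GFP-positive replicate 1 and 1 without GFP-positive replicate 3, and Dnajb1 was not called without GFP-negative replicate 2 or 3 or GFP-positive replicate 1; 2 heat-shock calls stood without GFP-negative replicate 1 or GFP-positive replicate 3. In normal colon the 2 became 4 without GFP-negative replicate 1, 0 without GFP-negative replicate 2 and 1 without GFP-negative replicate 3 or GFP-positive replicate 3, and 2 heat-shock calls appeared without GFP-negative replicate 1. For GFP-high against GFP-negative cells the 7 became 2 without GFP-negative replicate 1 or GFP-high replicate 3 and 4 without GFP-negative replicate 3. For GFP-low against GFP-negative cells the 6 became 1 without GFP-negative replicate 1 or GFP-low replicate 3 and 2 without GFP-negative replicate 2 or 3 or GFP-low replicate 1. Hsp90aa1 was called in neither comparison without any one GFP-negative replicate, nor without GFP-high replicate 3 in the first or GFP-low replicate 1 or 3 in the second. Klf4 in DSS colon, Zfp36 in GFP-high and Junb in GFP-low cells passed in every fit that left out 1 library.

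The 2 families differed in how they stood between DSS and normal sorted colon cells. In GFP-positive cells 9 of 11 heat-shock members rose with DSS and none fell, a share of 81.8% where 19.7% of all genes passed (10.2% upward and 9.46% downward). In GFP-negative cells 3 of 11 rose, a share of 27.3% where 10.3% passed (6.03% upward and 4.27% downward). All 11 had positive log2 fold changes in both sorts, apart from Hsp90ab1 in GFP-positive cells when library totals were set equal (-0.02). Their median was 1.36 in GFP-positive and 0.95 in GFP-negative cells, against -0.01 and -0.02 over all genes. Immediate early members went both ways: 4 rose and 5 fell of 26 in GFP-positive cells, with a median of 0.25 that was -0.15 without normal GFP-positive replicate 2. In GFP-negative cells 5 rose and 2 fell of 25, or 5 and 4 with library totals set equal, with a median of 0.24 that was -0.04 without normal GFP-negative replicate 1. As shares these were 34.6% and 28%. The normal and DSS libraries carry separate runs of library numbers in their labels, and whether both were isolated and sequenced together is not given, so a difference in handling between them cannot be told apart from colitis. Of the 9 heat-shock calls in GFP-positive cells 8 held in every fit that left out 1 library, Dnajb1 being lost without DSS replicate 1 or 2. The 9 immediate early calls numbered 4 when all groups of the scale were fitted together, 3 without DSS GFP-positive replicate 1 or 2 and 4 without replicate 3. In GFP-negative cells they numbered 4 without normal replicate 2 or DSS replicate 1, 1 without DSS replicate 2 and 2 without DSS replicate 3, and the heat-shock calls 5 without normal replicate 1 and 1 without DSS replicate 2.

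The values here are on the scale shared by sorted DSS and normal colon. Hsph1 had 1824, 2457 and 1159 normalised counts in DSS GFP-positive cells, against 286, 259 and 488 in normal GFP-positive cells. The groups were far apart, by 2.39 ± 0.30 (SE, adjusted p = 5e-04). In GFP-negative cells it had 1417, 1451 and 1337 with DSS, against 66, 971 and 691 in normal cells, and the wide normal values gave 1.98 ± 0.90 (adjusted p = 0.21). Hspb1, the HSP27 gene, had 1413, 1695 and 919 in DSS GFP-positive cells, against 278, 320 and 354 in normal ones (2.04 ± 0.24, adjusted p = 0.00012). In GFP-negative cells it had 926, 947 and 482 with DSS, against 52, 202 and 200 in normal cells (2.54 ± 0.49, adjusted p = 0.0098). Neither pair of groups overlapped. Hspd1, encoding the mitochondrial chaperonin HSP60, had 1093, 1214 and 731 in DSS GFP-positive cells, against 222, 251 and 319 in normal ones (1.92 ± 0.23, adjusted p = 0.00016), and 1052, 1228 and 1016 in DSS GFP-negative cells, against 240, 465 and 298 in normal ones (1.76 ± 0.28, adjusted p = 0.0024). Hspd1 was the heat-shock member called in both sorts with every library left out in turn. Its HSP10 partner Hspe1 had 709, 769 and 444 in DSS GFP-positive cells, against 207, 213 and 375 in normal ones (1.29 ± 0.27, adjusted p = 0.0073), and 914, 866 and 641 in DSS GFP-negative cells, against 166, 442 and 393 in normal ones (1.38 ± 0.35, adjusted p = 0.03).
Both chaperonin genes therefore lay above the normal range in each sort, although neither had passed between sorted and unsorted cells in the colon. Among the HSP70 genes, Hspa1a had 24687, 26856 and 19689 in DSS GFP-positive cells, against 6551, 9070 and 13012 in normal ones (1.36 ± 0.27, adjusted p = 0.0042). In GFP-negative cells it had 16323, 19345 and 16632 with DSS, against 3496, 15852 and 13230 in normal cells, where the lowest DSS value was barely above the highest normal one and the difference was not past the threshold (0.95 ± 0.48, adjusted p = 0.23). Hspa1b had 18166, 19584 and 13411 in DSS GFP-positive cells, against 4591, 5884 and 7683 in normal ones (1.51 ± 0.25, adjusted p = 0.0014). Hspa8, the constitutive HSP70, had 12375, 12563 and 9404 in DSS GFP-positive cells, against 4414, 6339 and 5238 in normal ones (1.11 ± 0.23, adjusted p = 0.0051). All these GFP-positive groups were clear of each other. Dnaja1 had 10528, 10528 and 5800 in DSS GFP-positive cells, against 3729, 2526 and 3269 in normal ones (1.46 ± 0.26, adjusted p = 0.0026), and Dnajb1 1799, 2055 and 1142, against 694, 579 and 1029 (1.12 ± 0.27, adjusted p = 0.012). In GFP-negative cells the log2 differences of Hspa1b, Hspa8, Dnaja1 and Dnajb1 were 0.93, 0.40, 0.75 and 1.10, and none passed. The HSP90 genes had the smallest differences of the 11 in GFP-positive cells, 0.48 ± 0.29 (adjusted p = 0.26) for Hsp90aa1 and 0.11 ± 0.23 (adjusted p = 0.77) for Hsp90ab1, and passed in neither sort. Hspb1 in GFP-negative cells was not called without DSS replicate 2, nor Hspe1 there without any one DSS replicate.

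Of the immediate early members, Cyr61 and Jun rose with DSS in both sorts and Klf2 fell in both. Cyr61 had 17815, 20008 and 15129 in DSS GFP-positive cells, against 6345, 2884 and 2182 in normal ones (2.36 ± 0.34, SE, adjusted p = 0.0011), and 11343, 19910 and 13654 in DSS GFP-negative cells, against 6018, 4189 and 3457 in normal ones (1.71 ± 0.33, adjusted p = 0.0074). Neither pair overlapped. Jun had 36029, 49137 and 37321 in DSS GFP-positive cells, against 23121, 14776 and 25661 in normal ones (0.97 ± 0.26, adjusted p = 0.02), and 40392, 56063 and 44092 in DSS GFP-negative cells, against 16936, 26331 and 20875 in normal ones (1.14 ± 0.31, adjusted p = 0.04). Klf2 had 494, 543 and 414 in DSS GFP-positive cells, against 1544, 617 and 817 in normal ones (-0.94 ± 0.29, adjusted p = 0.044), and 1337, 814 and 513 in DSS GFP-negative cells, against 3594, 4262 and 2811 in normal ones (-2.09 ± 0.35, adjusted p = 0.0033).
Of these calls, Cyr61 in GFP-positive and Klf2 in GFP-negative cells held in every fit that left out 1 library, Cyr61 in GFP-negative cells was lost without DSS replicate 2, and Jun in GFP-positive cells was lost without any one DSS replicate. Jun in GFP-negative cells was lost without normal replicate 2 or 3 or any one DSS replicate. Klf2 in GFP-positive cells was lost without normal replicate 1 or 3 or any one DSS replicate, and when all groups of the scale were fitted together. Fos had 2833, 2763 and 2160 in DSS GFP-positive cells, against 5838, 4698 and 7039 in normal ones (-1.17 ± 0.22, adjusted p = 0.0035). In GFP-negative cells it had 4775, 4350 and 3889 with DSS, against 5747, 9822 and 26001 in normal cells (-1.39 ± 0.45, adjusted p = 0.071). Fos was thus below the normal range in both sorts, and held its GFP-positive call in every such fit, while its partner Jun was above it. Klf4 had 1477, 1349 and 787 in DSS GFP-positive cells, against 3346, 1644 and 3184 in normal ones (-1.16 ± 0.31, adjusted p = 0.025). Gadd45g also fell, to 3157, 3124 and 2516, against 5703, 4001 and 8620 (SE 0.27 on the log2 scale, adjusted p = 0.02). Dusp1 had 9484, 9571 and 7635 in DSS GFP-positive cells, against 5849, 3886 and 5985 (0.78 ± 0.23, adjusted p = 0.031), and Atf3 had 1741, 1899 and 928, against 457, 348 and 791 (1.53 ± 0.34, adjusted p = 0.013).
Egr3 was near the floor, with 0, 3 and 0 in DSS GFP-positive cells, against 20, 3 and 11 in normal ones, and its call (adjusted p = 0.05 after rounding) was lost with a larger pseudocount of 8 and when values were centred at the median of all genes. In GFP-negative cells the calls beyond those named were Zfp36, Ier3, Klf6 and Ier2. Zfp36 had 8927, 23415 and 13991 with DSS, against 4809, 6136 and 4018 in normal cells (1.54 ± 0.36, adjusted p = 0.021), and Ier3, a stress-inducible survival gene, had 11820, 20320 and 17797, against 3298, 8400 and 8816 (1.38 ± 0.40, adjusted p = 0.049). Neither gene's groups overlapped. Klf6, a zinc-finger factor, had 2031, 3205 and 2228, against 665, 1273 and 1186 (1.28 ± 0.31, adjusted p = 0.026), and Ier2 had 1025, 1150 and 1182, against 1765, 2731 and 2848 (-1.10 ± 0.27, adjusted p = 0.027). Egr1 did not pass, with 42520, 47957 and 14506 in DSS GFP-positive cells, against 28649, 19997 and 25418 in normal ones (0.34 ± 0.41, adjusted p = 0.59). Neither did Junb in GFP-positive cells, with 23425, 45625 and 30264 with DSS, against 35293, 11181 and 34938 in normal cells (0.41 ± 0.45, adjusted p = 0.56).

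**Figure D4:**
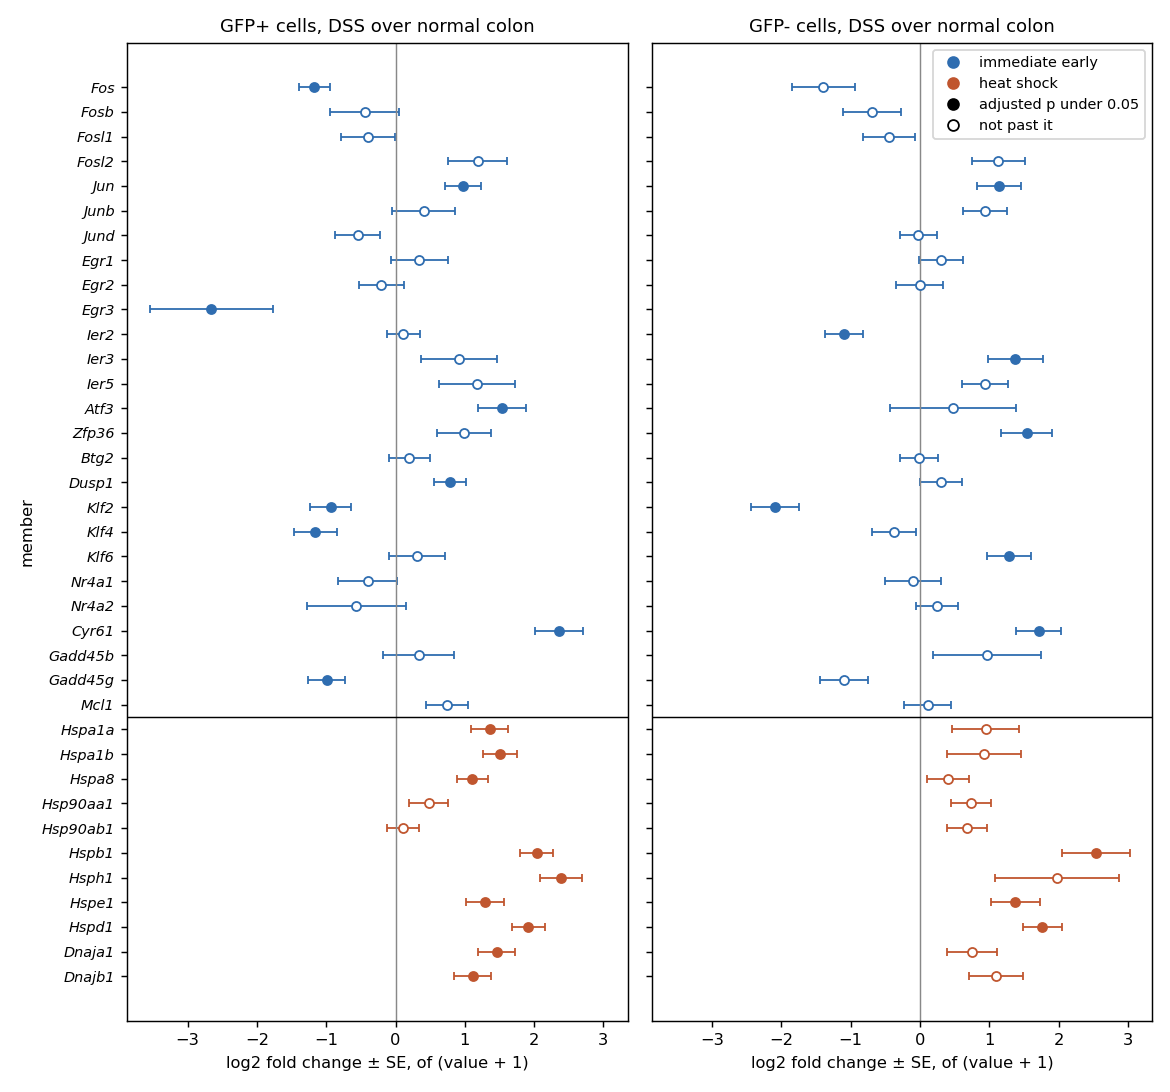
Log2 fold change of DSS over normal colon for each member in GFP-positive and GFP-negative cells, with standard errors, immediate early apart from heat-shock members. All 11 heat-shock points lie above 0 in both sorts, from 0.11 to 2.39 in GFP-positive and from 0.40 to 2.54 in GFP-negative cells (Hsp90ab1 in GFP-positive cells is at -0.02 with library totals set equal), whereas immediate early points lie on both sides of 0.

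Whether the sort difference itself changed with colitis or tissue was asked by comparing differences. The sorted minus unsorted difference was not separable between DSS and normal colon for any member in either sort by limma, where 0.108% and 0.0882% of all genes passed. At an unadjusted p under 0.05 there were 4 immediate early and 2 heat-shock members for GFP-positive cells, and 1 and 0 for GFP-negative cells. The share of all genes at that unadjusted level is not given for any of these differences, so such counts are not read as a result about the members. With normal unsorted replicate 1 left out 1 immediate early member passed in GFP-positive cells. The DSS minus normal difference likewise differed between GFP-positive and GFP-negative cells for 0 members, with 3 immediate early and 0 heat-shock members at an unadjusted p under 0.05 and 0.0519% of all genes past the threshold. A larger number of heat-shock calls in GFP-positive than in GFP-negative cells is therefore not shown to be a difference between the sorts. Against the colon, the small intestine stood apart in its GFP-high sort. The GFP-high minus unsorted difference in small intestine was lower than the GFP-positive minus unsorted difference in normal colon for 5 of 25 immediate early and 3 of 11 heat-shock members, shares of 20% and 27.3% where 3.63% of all genes passed (1.78% upward and 1.85% downward). They were Jun, Ier3, Ier5, Zfp36 and Nr4a2, and Hspa1a, Hspa1b and Hsp90aa1, and the comparison was added after the values were seen. Without small-intestine unsorted replicate 2 the calls numbered 1 and 1. Immediate early calls numbered 0 without small-intestine unsorted replicate 3, 8 without GFP-high replicate 1 and 3 without colon unsorted replicate 3 or colon GFP-positive replicate 3. Hspa1a passed in every such fit. The libraries of small intestine and normal colon also carry separate runs of library numbers, so tissue, gate and handling cannot be told apart. For the GFP-negative sorts 0 members passed by limma, with 5 immediate early and 5 heat-shock members at an unadjusted p under 0.05 and 0.0142% of all genes past the threshold, and 1 immediate early member passed without GFP-negative replicate 3 of small intestine or unsorted replicate 1 of colon.

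Other genes of the same pathways, from lists chosen by function, were counted in the same fits. Of other early-response genes, 11 of 38 rose and 5 fell in DSS GFP-positive against unsorted cells, a share of 42.1% where 37.1% of all genes passed, and 15 rose and 4 fell in GFP-negative cells, 50% where 33% passed. In GFP-high small-intestine cells 13 of 37 fell and 1 rose, 37.8% where 17.2% passed. The most abundant of them, Nfkbia, the NF-kB inhibitor, averaged 940 normalised counts in GFP-high against 4097 in unsorted small intestine (-2.16 ± 0.35, SE, adjusted p = 0.0045), and 15411 against 14258 in DSS GFP-positive and unsorted cells (0.06 ± 0.27, adjusted p = 0.89). Ctgf, a YAP target and relative of Cyr61, averaged 4072 in DSS GFP-positive against 1065 in unsorted cells (1.92 ± 0.27, adjusted p = 0.00012), and Hes1, a Notch target, 6467 against 3103 (1.09 ± 0.30, adjusted p = 0.013). Of upstream regulators, 3 of 16 were higher and 2 lower in DSS GFP-positive against unsorted cells, a share of 31.2% that lay below the 37.1% of all genes. Among them Yap1, the co-activator of Cyr61 and Ctgf, rose by 1.37 ± 0.20 (adjusted p = 0.00017) and Elk4, a CArG-box cofactor, by 0.87 ± 0.21 (adjusted p = 0.0052), while Mapk3 and Creb1 differed by -0.10 ± 0.29 (adjusted p = 0.82) and -0.04 ± 0.20 (adjusted p = 0.9). Of other heat-shock and chaperone genes, 9 of 38 rose and 2 fell with DSS in GFP-positive cells, a share of 28.9% where 19.7% of all genes passed, and 9 rose and 1 fell in GFP-negative cells, 26.3% where 10.3% passed. Those that rose in GFP-positive cells included the collagen chaperone Serpinh1 (0.99 ± 0.26, adjusted p = 0.019). The endoplasmic reticulum chaperone Hspa5 averaged 57664 in DSS GFP-positive against 36180 in normal cells (0.75 ± 0.30, adjusted p = 0.096).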

How the data were processed

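The data are 3′ RNA-seq (QuantSeq, Ion Proton) libraries of RNA with an integrity number over 7, per the labels' protocols. TopHat2, Bowtie2, DESeq and the mm10 build are named in the submitters' processing notes, with no versions. The authors deposited normalised counts rounded to whole numbers, treated here as a score and not as raw counts. Of 30 labelled libraries 29 were used. The strand used in counting is not given in the sources used here.

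Groups were compared with limma 3.58.1 (R 4.3.3, trend and robust) on log2(value + 1), so fold changes of low genes are understated. A gene was tested where 1 of the compared groups averaged 10 or more, with Benjamini-Hochberg adjusted p-values called under 0.05. Differences of differences used the 4 groups named. Summaries used Python 3.11.15 with pandas 2.3.3 and numpy 2.4.6. Depth was estimated from the spacing of low values, which in simulated libraries was recovered in 8 of 10, with an error of at most 0.4% where it was. The fit was tested on simulated data: with a log2 change of 1, 65% of changed genes were recovered between GFP-positive and unsorted DSS colon, 23% between GFP-positive and unsorted normal colon and 18% between GFP-high and unsorted small intestine. With a change of 2 the shares were 100% in DSS colon, 98% in normal colon and 97% in small intestine. Every simulated gene had the same SD of log2 values, 0.29 in DSS colon, 0.424 in normal colon and 0.391 in small intestine. Members varied more in some groups, with medians of 0.69 for immediate early members in normal-colon GFP-positive and 0.80 for heat-shock members in GFP-high cells. Genes also varied separately in the simulation, so these shares can overstate recovery of the members. The members and lists were chosen with earlier results of these data known. Values in every library are printed for the given markers, for members past the threshold in one direction in at least 5 of the 7 sorted against unsorted comparisons, and for members past it between DSS and normal colon. The pathway lists give up to 4 examples each, the most abundant. One such example is not reported here. Alternatives were a pseudocount of 8, no filter, equal library totals, centring at the median of all genes, a fit of all groups of a scale, a replicate block and leaving out each library. The small intestine to colon differences and the 2-unit heat-shock element were added after the data were seen.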

Additional observations from a re-analysis of the deposited data

Results flagged for a closer look

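The sorted minus unsorted difference was lower in small intestine (GFP-high) than in normal colon (GFP-positive) for 8 members, by limma on the difference of the 2 differences with adjusted p over all genes tested. For the immediate early genes this difference of log2 fold changes was -2.68 ± 0.51 for Jun (SE, adjusted p = 0.011), -2.97 ± 0.74 for Ier3 (adjusted p = 0.039), -3.51 ± 0.75 for Ier5 (adjusted p = 0.02), -3.01 ± 0.63 for Zfp36 (adjusted p = 0.017) and -4.90 ± 0.92 for Nr4a2 (adjusted p = 0.011). For the heat-shock genes it was -3.18 ± 0.54 for Hspa1a (adjusted p = 0.0061), -2.97 ± 0.58 for Hspa1b (adjusted p = 0.013) and -2.82 ± 0.73 for Hsp90aa1 (adjusted p = 0.046). Of these 8, Hspa1a alone passed with each library left out in turn. Nr4a2 was lost without small-intestine unsorted replicate 3, and Jun, Zfp36 and Hspa1b without small-intestine unsorted replicate 2 or 3. The sorts of the 2 tissues are gated differently (GFP-high against GFP-positive), and their libraries carry separate runs of library numbers in their labels. Whether both were isolated and sequenced together is not given, so tissue, gate and handling cannot be told apart.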

How the results depend on the processing

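None of 153 called member differences changed sign under any setting run, while 167 of 533 that had not passed and 12 of 38 family medians did under at least 1. Hsp90ab1 in DSS against normal GFP-positive cells was 0.11, and -0.02 with equal library totals, and the immediate early median of GFP-negative against unsorted small intestine was -0.09, and 0.17 when centred. Numbers of immediate early (IE) or heat-shock (HS) calls that changed by over 1.5 times follow. With a replicate block, GFP-positive against unsorted normal colon gave 1 IE and 1 HS call (2 and 0 without it), GFP-negative against unsorted normal colon 2 IE (1), GFP-high against unsorted small intestine 19 IE (11), GFP-negative against unsorted small intestine 2 IE and 2 HS (7 and 4), DSS GFP-positive against GFP-negative 8 IE and 2 HS (5 and 1), GFP-high against GFP-negative 2 HS (1), GFP-low against GFP-negative 3 IE and 0 HS (6 and 1), and GFP-high against GFP-low 1 HS (0). Same-numbered samples correlated over 0.1 in 3 of 9 pairs of normal colon, 5 of 9 of DSS colon and 8 of 15 of small intestine. Same-numbered pairs ran from -0.23 to 0.28 in normal colon, 5.35e-05 to 0.508 in DSS colon and -0.503 to 0.436 in small intestine. Differently numbered pairs ran from -0.422 to 0.381, -0.576 to 0.307 and -0.516 to 0.586, in the same order. No same-numbered pair of DSS colon was negative, and whether the numbers pair samples there was not settled. The main fits did not pair samples by number.

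With all groups of a scale in one fit, IE calls became 1 in GFP-positive and 3 in GFP-negative against unsorted normal colon, 1 between the normal colon sorts, 3 between the DSS sorts and 4 for DSS against normal GFP-positive cells (9). HS calls became 4 for GFP-low against unsorted small intestine (9), 0 between the DSS sorts, 2 for GFP-high and 0 for GFP-low against GFP-negative. With equal library totals HS calls were 3 for DSS GFP-negative against unsorted (5) and 3 between the DSS sorts (1), and 1 IE member passed in the GFP-negative tissue difference (0), as it did with a pseudocount of 8. Centring gave 5 HS calls for GFP-low against unsorted small intestine and 2 for GFP-low against GFP-negative. A pseudocount of 8 and no filter each gave 2 HS calls for GFP-high against GFP-negative. Joint fits were not run for the differences of differences.

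Leaving out each library in turn, IE calls ranged from 1 to 3 (GFP-positive) and 0 to 4 (GFP-negative) against unsorted normal colon, 7 to 12 and 9 to 16 against unsorted DSS colon, and 0 to 13 (GFP-high), 2 to 14 (GFP-low) and 0 to 6 (GFP-negative) against unsorted small intestine. HS calls ranged from 0 to 1 and stayed at 0 in normal colon, 3 to 7 and 2 to 5 in DSS colon, and 0 to 7, 0 to 8 and 0 to 3 in small intestine. Between sorts, IE calls ranged from 0 to 4 in normal colon, 1 to 5 in DSS colon, 2 to 6 for GFP-high and 1 to 5 for GFP-low against GFP-negative, and HS calls from 0 to 2, 0 to 2, 0 to 1 and 0 to 1. For DSS against normal, IE calls ranged from 3 to 11 (GFP-positive) and 1 to 10 (GFP-negative), and HS calls from 8 to 9 and 1 to 5. In the differences, IE calls ranged from 0 to 1 for DSS against normal GFP-positive, 0 to 8 for the GFP-high tissue difference and 0 to 1 for the GFP-negative one, and HS calls from 1 to 4 for the GFP-high one. The cause of these changes was not tested, apart from fewer samples in each fit.

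Values are limited by normalised counts that keep no raw depth, by 2 unsorted small-intestine libraries, by levels that cannot be compared between scales, and by cell makeup that differs between sorted and unsorted cells.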

Other observations

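Apoa1 went against the summed epithelial markers in the small intestine. Apoa1, an apolipoprotein made by enterocytes, averaged 6207 normalised counts in GFP-high and 5751 in GFP-low cells, against 73.5 in unsorted small intestine, with log2 fold changes of 6.21 (limma adjusted p = 0.0061) and 6.45 (adjusted p = 8e-04). In GFP-negative cells it averaged 2291, with a log2 fold change of 3.86 that did not pass (adjusted p = 0.25). The 15 epithelial markers summed to at most 0.0459% in the same sorted libraries, against at least 0.135% in the unsorted ones. Which cells the Apoa1 transcripts came from was not tested. The gene was singled out after its values were seen.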
